A study of Mus musculus with 4 samples.

Results

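Smooth muscle nuclei of intact mouse back skin were taken as the barcodes of the unwounded libraries that held at least 1 UMI (unique molecular identifier, 1 counted RNA molecule) of at least 3 of 9 genes and fewer than 3 of 5 skeletal muscle genes. The 9 genes were Myh11, Itga8, Myocd, Adra1a, Synpo2, Mrvi1, Notch3, Rasl12 and Acta2, and the 5 were Neb, Ryr1, Trdn, Mypn and Mybpc1. A barcode also needed at least 200 genes detected and at most 5% mitochondrial UMIs. The rule found 99 nuclei, 57 in unwounded replicate 1 and 42 in unwounded replicate 2, of 16733 nuclei in the unwounded libraries and 23448 in the series. All 14 genes chose the nuclei, so none of them is a result here.

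The series holds nuclear RNA of 4 libraries from wild type C57BL/6 mice aged 8 weeks, made from ground skin without a sort for any cell type. The wounded group is back skin harvested 1 day after a full-thickness excisional wound (2 mice), and the unwounded group is uninjured back skin (2 other mice). In the unwounded libraries the smooth muscle nuclei were set against 2 other classes: the 523 skeletal myonuclei (247 and 276 nuclei, at least 3 of the 5 skeletal genes) and the remaining other nuclei (6659 and 9452). Mice are the replicates, so UMIs were summed over each class in each mouse, and levels are given as CPM, a gene's UMIs per 1000000 UMIs of that sum.

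Smooth muscle contracts when calcium, entering through voltage-gated channels or released from stores, drives myosin light chain kinase, and relaxes as cyclic nucleotide signals and myosin phosphatase reverse this. Skin holds smooth muscle in the arrector pili muscles that raise the hairs and in the walls of blood vessels. Integrin α8 (Itga8) binds nephronectin and is known from the arrector pili, while Notch3 is known from vascular smooth muscle cells and pericytes.

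Much of the contractile programme lies under serum response factor, which binds the CArG box, a run of A and T between CC and GG. The 250 bases before the start site of 5 genes that carry this motif are shown as examples of where the motif lies: Myl9 and Vcl are contractile list genes called higher in smooth muscle nuclei, and Trpc6, Cnn2 and Prune2 are among the genes with the largest differences described further on. Myl6, Ldb3 and Fhl1 of the contractile list also held a box in this window and are not printed. The sequences are RefSeq's on GRCm38.p6, all on the + strand, with the CArG box in capitals.
Myl9, chr2:156775214-156775463: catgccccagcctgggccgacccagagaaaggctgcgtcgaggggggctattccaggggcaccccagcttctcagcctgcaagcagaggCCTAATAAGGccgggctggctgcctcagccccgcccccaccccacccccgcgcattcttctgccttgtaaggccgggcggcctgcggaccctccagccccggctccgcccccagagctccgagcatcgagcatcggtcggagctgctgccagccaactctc
Vcl, chr14:20929148-20929397: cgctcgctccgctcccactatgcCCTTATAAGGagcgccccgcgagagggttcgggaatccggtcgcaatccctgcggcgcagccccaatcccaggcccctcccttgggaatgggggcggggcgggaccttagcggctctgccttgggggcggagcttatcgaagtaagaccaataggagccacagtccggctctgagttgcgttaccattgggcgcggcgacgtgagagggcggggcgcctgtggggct
Trpc6, chr9:8543892-8544141: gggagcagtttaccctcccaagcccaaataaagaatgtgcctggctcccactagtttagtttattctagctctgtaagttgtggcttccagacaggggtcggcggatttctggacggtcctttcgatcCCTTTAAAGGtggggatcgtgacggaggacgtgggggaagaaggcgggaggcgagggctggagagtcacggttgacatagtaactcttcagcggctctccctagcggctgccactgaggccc
Cnn2, chr10:79988350-79988599: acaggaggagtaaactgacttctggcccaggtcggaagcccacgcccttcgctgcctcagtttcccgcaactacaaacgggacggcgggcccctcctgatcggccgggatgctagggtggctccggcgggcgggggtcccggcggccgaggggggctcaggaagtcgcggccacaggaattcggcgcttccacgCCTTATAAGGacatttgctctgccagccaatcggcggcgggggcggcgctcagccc
Prune2, chr19:16955868-16956117: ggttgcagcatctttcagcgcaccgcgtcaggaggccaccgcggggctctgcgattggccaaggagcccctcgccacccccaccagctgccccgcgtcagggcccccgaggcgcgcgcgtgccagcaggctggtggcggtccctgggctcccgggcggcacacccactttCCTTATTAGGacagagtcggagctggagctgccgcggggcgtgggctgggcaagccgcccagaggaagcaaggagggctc

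The motif as searched was CC and GG around a run of A or T bases, in any order, of the fixed length seen in the capitals above. It is its own reverse complement, so a match on 1 strand is a match on the other, and no other motif or length was searched. The CArG box began 161 bases before the start site in Myl9, 227 in Vcl, 122 in Trpc6, 56 in Cnn2 and 80 in Prune2. Of the 27025 genes with such a sequence, 439 held a CArG box (1.62%), against 5 of the 24 contractile list genes that were matched (20.8%), of which 4 were called higher in smooth muscle nuclei and Myl6 was not. The share was 22 of 367 among the genes called higher in smooth muscle nuclei than in other nuclei (5.99%) and 80 of 6300 among the genes tested and not called higher (1.27%). A match describes these letters only.

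The 57 nuclei of unwounded replicate 1 made up 0.819% of its nuclei (95% Wilson interval 0.632 to 1.06%) and the 42 of replicate 2 made up 0.430% (0.318 to 0.581%). Among nuclei with at least 400 genes the shares were 0.885% and 0.861%. These intervals cover counting error only. The smooth muscle sums held 83106 and 41939 UMIs, against 734439 and 420540 UMIs of skeletal myonuclei and 7945198 and 6536905 UMIs of other nuclei. A smooth muscle nucleus held a median of 1250 UMIs in replicate 1 (471 to 4505) and 895 in replicate 2 (377 to 2750). The medians were 2525 and 1195 in skeletal myonuclei and 878 and 463 in other nuclei. A deeper nucleus passes the gate more easily. Part of the counts given here were repeated on nuclei thinned to 500 UMIs, with classes and subsets kept from the full counts. The thinning thus evens the depth of the nuclei compared, and cannot show how depth affects passing the gate. No smooth muscle barcode was found among the nuclei of another library.

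Members had a median of 6 of the 9 gate genes detected in both mice, which describes the choice and is no result. The nuclei that just passed, with 3 gate genes, numbered 13 and 6, and those that just missed, with 2, numbered 46 and 32. A list of 28 contractile genes outside the gate was used to check the label. Its summed level was 8680 and 10552 CPM in nuclei with 3 gate genes, against 3877 and 3507 CPM in those with 2. It reached 34529 and 35612 CPM in the 5 nuclei of each mouse with 8 gate genes. The summed level in nuclei with no gate gene was 3172 and 2924 CPM. Skeletal myonuclei, left out of these groups, had 9459 and 8042 CPM, near the level in nuclei with 3 gate genes. The sum alone thus does not tell nuclei that just passed from skeletal myonuclei.

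**Figure D1:**
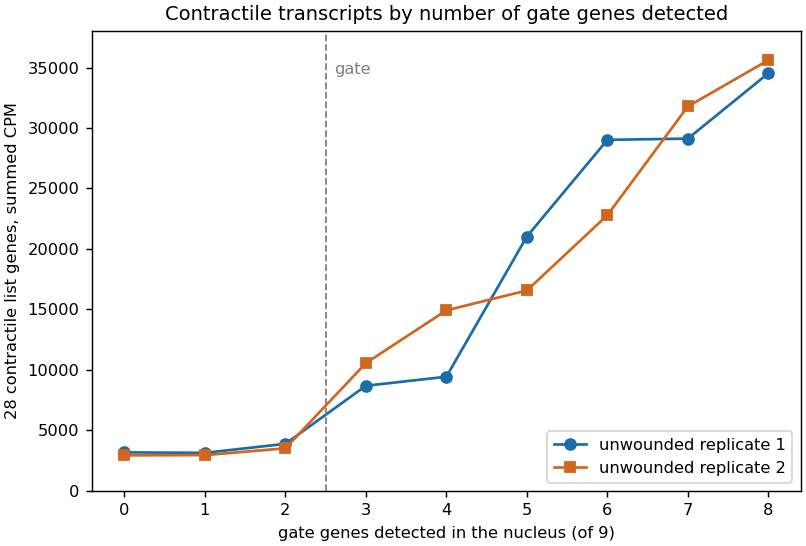
Summed level of the 28 contractile list genes (y axis, CPM) in nuclei that are not skeletal myonuclei, by the number of gate genes detected (x axis, of 9), with 1 line for each unwounded library; the dashed line marks the gate. The level lies between 2924 and 3877 CPM on the left of the gate and lies between 8680 and 35612 CPM on its right.

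The contractile apparatus was the group with the most genes called higher in smooth muscle nuclei than in other nuclei. Of its 28 genes, 27 passed the filter on low counts and 26 of these were higher, none lower, at an adjusted p under 0.05 (edgeR quasi-likelihood test with the mouse as a block, Benjamini-Hochberg over all 8438 genes tested). The median log2 fold change of the list was 3.20, and that of all genes tested was -0.24. Over all genes, 837 were called (9.92%), 487 of them higher (5.77%) and 350 lower (4.15%), and 1753 had an unadjusted p under 0.05. The list's genes share nuclei with the gate genes, which favours them by choice, and each sum rests on few nuclei.

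Lmod1, which encodes the actin nucleator leiomodin 1 (chr1:135324807-135368065), had 638 and 596 CPM in smooth muscle nuclei, against 4.03 and 6.12 CPM in other nuclei. Its log2 fold change was 6.93 ± 0.34, adjusted p = 1.9e-27, in edgeR. Here and below, the value after ± is the size of the log2 fold change over the square root of the test's F statistic. It stands in for a standard error and may understate the error of genes with few UMIs. Mylk, the myosin light chain kinase that starts contraction, had 2106 and 2218 CPM in smooth muscle nuclei, against 142 and 123 CPM in other nuclei. The smooth muscle sums of both mice lay above both other sums for each of these genes. Actg2, the smooth muscle γ-actin, had 193 and 143 CPM in smooth muscle nuclei, against 1.01 and 0.612 CPM in other nuclei, a log2 fold change of 7.57 ± 0.64. Actins have near-identical coding sequences, and how reads that match several of them were counted is not given in the sources used here.

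Other genes of the thin filament and the light chains were called one by one. Tpm1, a tropomyosin, had 1660.5 and 1359 CPM in smooth muscle nuclei, against 69.1 and 73.7 CPM in other nuclei (log2 fold change 4.34 ± 0.25). Myl9, the regulatory myosin light chain whose promoter is shown above, had 156 and 167 CPM in smooth muscle nuclei, against 3.02 and 1.38 CPM in other nuclei (6.08 ± 0.62). Tagln, the actin-binding transgelin, differed more between the mice, with 108 and 47.7 CPM in smooth muscle nuclei from 9 and 2 UMIs, against 2.01 and 3.67 CPM in other nuclei. Myl6, an essential light chain used by many cell types, had 120 and 143 CPM in smooth muscle nuclei and 51.5 and 73.0 CPM in other nuclei and was not called (adjusted p = 0.14). Cnn1, calponin 1, was not tested, with 2 and 2 UMIs in smooth muscle nuclei.

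Both arms of the light chain switch were among the higher genes. Ppp1r12a, the subunit that brings myosin phosphatase to myosin, had 2370.5 and 2623 CPM in smooth muscle nuclei, against 366 and 302 CPM in other nuclei (log2 fold change 2.84 ± 0.22, adjusted p = 2.9e-17). Ppp1r14a, which inhibits that phosphatase, had 96.3 and 95.4 CPM in smooth muscle nuclei, against 7.17 and 7.04 CPM in other nuclei, from 8 and 4 UMIs (3.72 ± 0.68). Vcl, vinculin of the adhesion plaques, had 457 and 453 CPM in smooth muscle nuclei, against 56.5 and 47.7 CPM in other nuclei (3.07 ± 0.30).

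**Figure D2:**
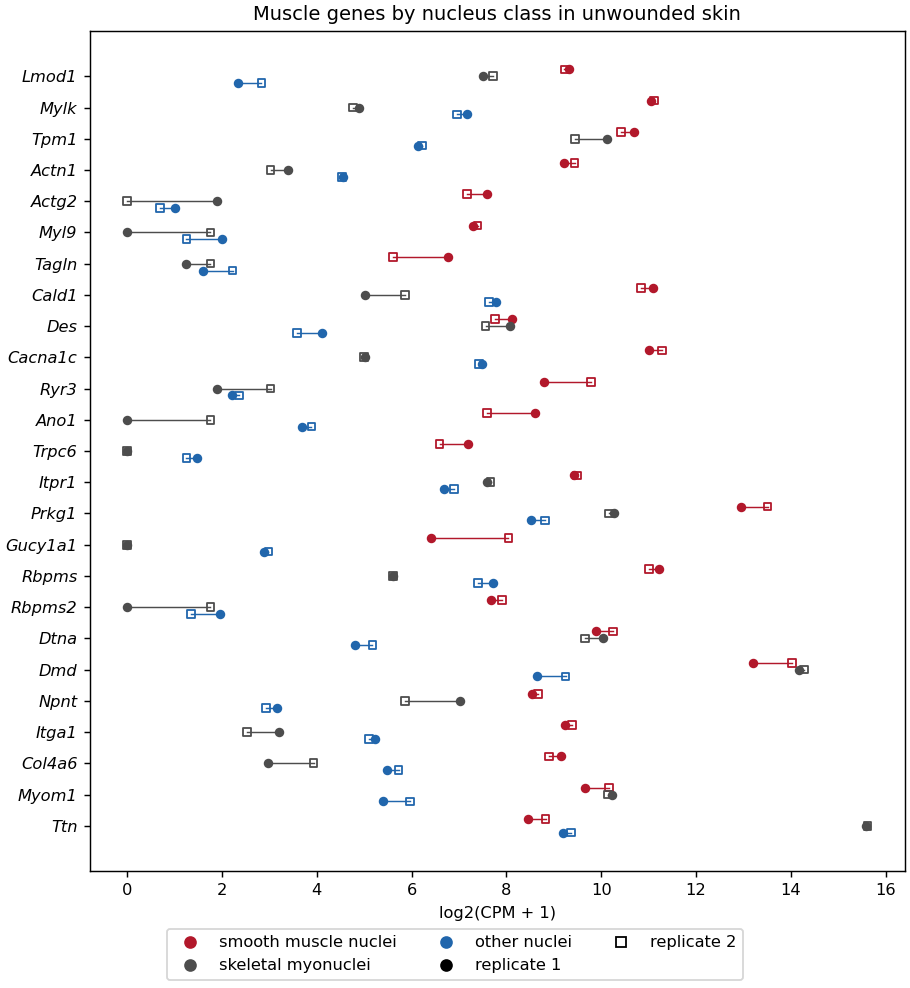
Levels of 25 muscle genes as log2(CPM + 1) (x axis) in smooth muscle nuclei, skeletal myonuclei and other nuclei of the unwounded libraries; filled circles are replicate 1 and open squares replicate 2. Lmod1, Mylk and Myl9 lie to the right in smooth muscle nuclei of both mice, and Ttn lies far to the right in skeletal myonuclei.

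Detection per nucleus followed the sums. Mylk had a UMI in 43 of 57 and 27 of 42 smooth muscle nuclei (75.4% and 64.3%), against 12.4% and 6.96% of other nuclei, whose median depth was lower. After thinning to 500 UMIs the shares were 64.8% and 69.7% in smooth muscle nuclei and 6.28% and 5.46% in other nuclei. Skeletal myonuclei, which are deeper, had a Mylk UMI in 4.86% and 3.99%.

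Channels and pumps that move calcium and potassium were the next group, with 15 of 20 tested genes higher and none lower (list of 23, median log2 fold change 2.64). Ryr3, a calcium release channel of the internal store, had 445 and 882 CPM in smooth muscle nuclei, against 3.65 and 4.13 CPM in other nuclei (7.26 ± 0.39, adjusted p = 3.7e-25 in edgeR). Cacna1c, the pore of the L-type calcium channel of smooth muscle, had 2046 and 2480 CPM in smooth muscle nuclei, against 177 and 171 CPM in other nuclei (3.64 ± 0.22). Its sums were above those of other nuclei in both mice, with little spread between the mice.

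Ano1, a calcium-activated chloride channel, had 385 and 191 CPM in smooth muscle nuclei, against 11.8 and 13.8 CPM in other nuclei (log2 fold change 4.56 ± 0.44). Trpc6, a receptor-operated cation channel with a CArG box in the sequence above, had 144 and 95.4 CPM in smooth muscle nuclei, against 1.76 and 1.38 CPM in other nuclei (6.21 ± 0.67). These values rest on few nuclei: Trpc6 had UMIs in 4 nuclei of replicate 1 and 2 of replicate 2. Slc8a1, the sodium-calcium exchanger, was also higher (1.57 ± 0.25), but 28 of its 54 UMIs in replicate 1 came from 1 nucleus. Stim1, Orai1, Cacna1d and Abcc9 were among those tested and not called.

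Of 13 tested genes of cyclic nucleotide signalling, 5 were higher and none lower (list of 14, median log2 fold change 1.29). Prkg1, the cGMP-dependent kinase that relaxes smooth muscle, had 7906 and 11659.8 CPM in smooth muscle nuclei, against 368 and 448 CPM in other nuclei (4.51 ± 0.25, adjusted p = 1.7e-24 in edgeR). The soluble guanylate cyclase subunits Gucy1a1, Gucy1a2 and Gucy1b1, which make cGMP in response to nitric oxide, were all higher, with log2 fold changes of 4.45 ± 0.60, 2.54 ± 0.38 and 3.30 ± 0.76. The calls of Gucy1a2 and Gucy1b1 were lost with a gate of at least 4 genes. Pde4d, a cAMP phosphodiesterase, was the other called member (1.29 ± 0.23). Pde5a and Vasp had 3 and 3 UMIs each in smooth muscle nuclei and were not called.

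Receptors of contractile agonists were mostly too low to test. Of 17 genes 5 were tested, and 1 was lower and none higher: Agtr1a, the angiotensin II receptor, with 12.0 and 71.5 CPM in smooth muscle nuclei, against 129 and 124 CPM in other nuclei (log2 fold change -1.99 ± 0.63, adjusted p = 0.029 in edgeR). That call rests on 1 and 3 UMIs and was lost in DESeq2 and without the mouse as a block. The list median was -1.99, or -0.42 with the genes at 0 set at their bounds. Chrm3, a muscarinic receptor, had 0 UMIs in smooth muscle nuclei, which allows up to 24.0 CPM over both mice, and 38.4 and 37.8 CPM in other nuclei, and was not called (adjusted p = 0.093 in edgeR). Ednra, the endothelin receptor, had 84.2 and 71.5 CPM in smooth muscle nuclei and 45.1 and 41.8 CPM in other nuclei and was not called.

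Of 13 tested transcription and RNA regulators of smooth muscle, 3 were higher and none lower (list of 18, median log2 fold change 0.35). Rbpms, an RNA-binding protein that steers smooth muscle splicing, had 2370.5 and 2051 CPM in smooth muscle nuclei, against 208 and 167 CPM in other nuclei (3.51 ± 0.22, adjusted p = 3.1e-22 in edgeR). Its relative Rbpms2 had 205 and 238 CPM in smooth muscle nuclei, against 2.89 and 1.53 CPM in other nuclei (6.52 ± 0.56). Mef2c, a transcription factor of several muscle types, was higher by a log2 fold change of 1.30 ± 0.29. Srf itself had 2 and 1 UMIs in smooth muscle nuclei and was not called, nor were its cofactors Mrtfa and Mrtfb.

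The Notch pathway, tested without its receptor in the gate, had 3 of 9 tested genes higher and 1 lower (list of 17, median log2 fold change 0.03). Jag1, a Notch ligand, had 120 and 238 CPM in smooth muscle nuclei, against 27.4 and 36.6 CPM in other nuclei (2.36 ± 0.49, adjusted p = 0.00025 in edgeR). The coactivators Maml2 and Maml3 were higher by 0.72 ± 0.23 and 0.86 ± 0.27, and both calls were lost in DESeq2 and without the mouse as a block. Rbpj, the DNA-binding partner of cleaved Notch, had 205 and 215 CPM in smooth muscle nuclei, against 795 and 725 CPM in other nuclei (-1.89 ± 0.32).

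The dystrophin complex links actin to the basement membrane in muscle, and 4 of its 14 genes were higher and none lower. The list median was -0.05, or 0.00 with its gene at 0 set at the bound. Dmd, dystrophin, had 9422 and 16596 CPM in smooth muscle nuclei, against 400.2 and 607 CPM in other nuclei (log2 fold change 4.61 ± 0.29, adjusted p = 1.1e-21 in edgeR). Dtna, dystrobrevin α, had 951 and 1216 CPM in smooth muscle nuclei, against 27.1 and 35.0 CPM in other nuclei (5.05 ± 0.27). Sntb1 and Sgcd were the other called members. Utrn, the dystrophin relative utrophin, had 638 and 668 CPM in smooth muscle nuclei and 992 and 877 CPM in other nuclei and was not called (adjusted p = 0.16).

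On the matrix side, 11 of 18 tested integrin and basement membrane genes were higher and 1 lower (list of 20, median log2 fold change 1.25). Npnt, nephronectin, the ligand of the integrin in the gate, had 373 and 405 CPM in smooth muscle nuclei, against 7.93 and 6.58 CPM in other nuclei (5.64 ± 0.41, adjusted p = 5.4e-19 in edgeR). Itga1, a collagen-binding integrin, had 602 and 668 CPM in smooth muscle nuclei, against 36.4 and 33.2 CPM in other nuclei (4.12 ± 0.30). Col4a5 and Col4a6, paired chains of type IV collagen, were higher by 2.44 ± 0.36 and 3.46 ± 0.31, and the more widely used chains Col4a1 and Col4a2 by 1.24 ± 0.33 and 1.73 ± 0.36. Among the laminins, Lama4 and Lama5 were higher and Lama2 was lower, with 505 and 334 CPM in smooth muscle nuclei, against 1137 and 1048 CPM in other nuclei (-1.36 ± 0.27).

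Vascular mural and pericyte genes had 6 of 9 tested genes higher and none lower (list of 18, median log2 fold change 1.28). Mcam, an adhesion molecule of vessel walls, had 469 and 429 CPM in smooth muscle nuclei, against 16.5 and 20.2 CPM in other nuclei (4.61 ± 0.36, adjusted p = 2.4e-17 in edgeR). Cspg4, the pericyte proteoglycan NG2, had 253 and 71.5 CPM in smooth muscle nuclei, against 8.31 and 6.58 CPM in other nuclei (4.47 ± 0.57). Aoc3, Art3, Ebf2 and Trpc6 were the other higher genes, and the calls of Ebf2 and Art3 were lost with no filter on low counts, that of Ebf2 also in DESeq2 and with a gate of at least 4 genes. Ebf1, Pdgfrb and Abcc9 were not called. Rgs5, a pericyte marker, had a UMI in 1 of 57 and 1 of 42 smooth muscle nuclei.

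**Figure D3:**
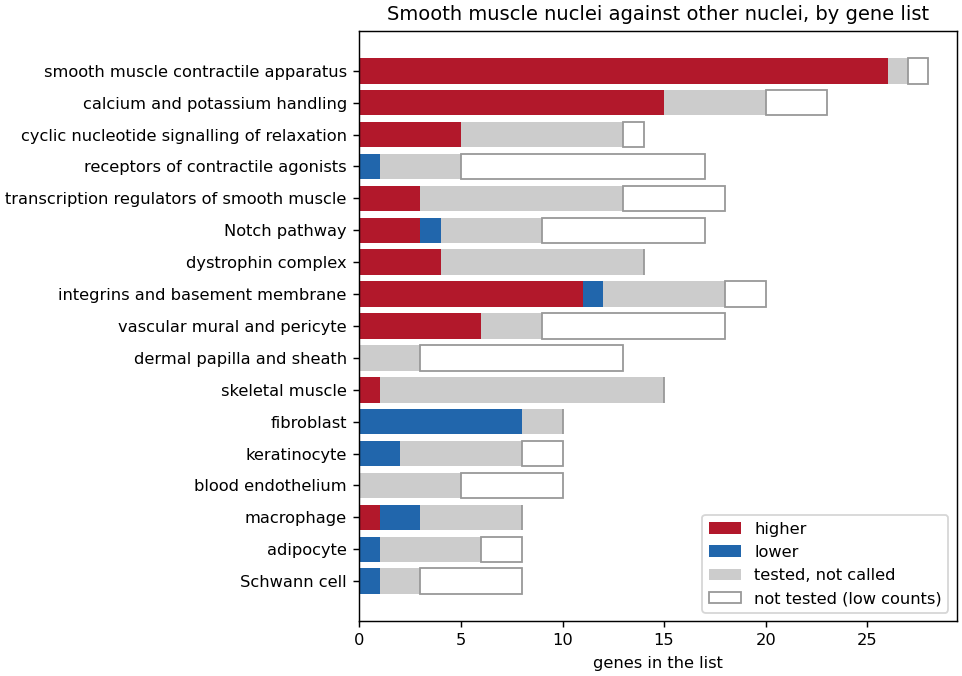
Number of genes (x axis) of each of 17 lists that were higher, lower, tested and not called, or not tested in smooth muscle nuclei against other nuclei, with calls at an adjusted p under 0.05. The contractile list has 26 higher genes of 28, and the fibroblast list has 8 lower genes of 10.

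Markers of other skin cell types were low but not at 0. Of 10 fibroblast genes 8 were lower and none higher (median log2 fold change -1.55), yet their summed level was 5030 and 4673 CPM in smooth muscle nuclei, against 2407 and 3681 CPM in skeletal myonuclei and 13485 and 13459 CPM in other nuclei. At least 3 fibroblast genes had a UMI in 36 of 57 and 21 of 42 smooth muscle nuclei (63.2% and 50%), against 61.9% and 46.7% of skeletal myonuclei and 87.3% and 74.6% of other nuclei. The part of this RNA in the results was not tested. Without the nuclei that had 3 markers of another type, 208 genes were higher and 283 lower than in other nuclei. Of the 103 called named genes in that fit 33 lost their call. They included the contractile genes Des, Fhl1, Ldb3, Ppp1r12b, Ppp1r14a and Tpm2, the calcium and potassium genes Atp2a2, Cacna2d1, Kcnq5 and Ryr2, and the regulators and Notch genes Mef2c, Jag1, Maml2 and Maml3. Of the matrix and mural genes, Col4a1, Hspg2, Itga7, Itga9, Lama5, Aoc3, Art3 and Ebf2 lost theirs. Lmod1 and Mylk kept their calls against other nuclei.

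Further lists gave few calls. Keratinocyte genes had 2 of 8 tested lower (Dsp and Trp63), adipocyte genes 1 of 6 lower (Ghr) and Schwann cell genes 1 of 3 lower (Mbp). None of the 5 tested endothelial genes and none of the 3 tested dermal papilla and sheath genes was called in edgeR. The endothelial genes summed to 84.2 and 215 CPM in smooth muscle nuclei, against 235 and 259 CPM in other nuclei. Of 8 macrophage genes, Mrc1 and Adgre1 were lower and Mertk, a receptor kinase for apoptotic cells, was higher, with 433 and 382 CPM in smooth muscle nuclei, against 228 and 159 CPM in other nuclei (log2 fold change 1.03 ± 0.28, adjusted p = 0.0074 in edgeR). The calls of Mertk, Adgre1, Dsp, Mbp and Trp63 were lost in DESeq2. The skeletal muscle list had 1 of 15 genes higher, Myom1, which encodes the M-band protein myomesin 1, with 806 and 1145 CPM in smooth muscle nuclei, against 40.9 and 61.5 CPM in other nuclei (4.19 ± 0.27). Ttn, titin, had 349 and 453 CPM in smooth muscle nuclei and 587 and 654 CPM in other nuclei and was not called.

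Genes outside the lists gave several of the largest differences from other nuclei. Kcnj6, a G protein-gated potassium channel (chr16:94748636-94997701), had 96.3 and 382 CPM in smooth muscle nuclei, against 0.629 and 1.07 CPM in other nuclei (log2 fold change 7.83 ± 0.62, adjusted p = 4.2e-17 in edgeR). Tafa1, a secreted protein of the TAFA family, had 818 and 882 CPM in smooth muscle nuclei, against 3.02 and 7.80 CPM in other nuclei (7.33 ± 0.36). Ntf3, the neurotrophin NT-3, had 1023 and 929.9 CPM in smooth muscle nuclei, against 12.5 and 14.7 CPM in other nuclei (6.14 ± 0.29). For all of these genes both smooth muscle sums lay above both other sums.

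The phosphodiesterases Pde8b and Pde4c, which break down cAMP, were higher by log2 fold changes of 6.70 ± 0.47 and 6.23 ± 0.72. Prdm16, a transcriptional regulator, had 529 and 477 CPM in smooth muscle nuclei, against 7.17 and 6.58 CPM in other nuclei (6.14 ± 0.40). Tnr, the matrix protein tenascin R, differed between the mice, with 37 and 3 UMIs in smooth muscle nuclei. Ces5a, Sbspon and Stum were the other genes of this group, each from 3 to 15 UMIs a mouse.

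The genes with the largest fitted fold changes downward had 0 UMIs in both smooth muscle sums, so only a bound can be given, taken against 3 UMIs over both mice. A gene with UMIs may differ by more than such a bound, so these genes are not a ranking by size. Spag17, a cilium protein gene, had 100.4 and 152 CPM in other nuclei and was at least 5.16-fold lower in smooth muscle nuclei. Igf1, the insulin-like growth factor 1 gene, had 84.2 and 74.0 CPM in other nuclei and was at least 3.32-fold lower. Il1r2, the interleukin-1 decoy receptor, was at least 3.14-fold lower, and Acly, ATP citrate lyase, at least 2.86-fold lower. Echdc1, Rims1, Dnajc25 and Ptpre were lower by bounds between 2.90-fold and 3.78-fold. Without the nuclei that carried markers of another type, the calls of all of these but Spag17 were lost.

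Against skeletal myonuclei, the other muscle class of the same skin, smooth muscle nuclei had 1641 genes called (19.4%) of 8438, 674 higher (7.99%) and 967 lower (11.5%), with a median log2 fold change of -0.21. In the contractile list 18 of 27 tested genes were higher and 4 lower (median 1.71). Mylk had 28.6 and 26.2 CPM in skeletal myonuclei (5.80 ± 0.29, adjusted p = 1.7e-26 in edgeR) and Cald1, caldesmon, which restrains actin in smooth muscle, had 2190 and 1836 CPM in smooth muscle nuclei, against 31.3 and 57.1 CPM in skeletal myonuclei (5.13 ± 0.29). The lower members were Ldb3, Pdlim3, Ppp1r12b and Fhl1, which striated muscle also uses. Tpm1, Tpm2, Des, Synm and Myl6 were not called: Des, desmin, had 277 and 215 CPM in smooth muscle nuclei and 267 and 188 CPM in skeletal myonuclei.

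All 15 genes of the skeletal muscle list were lower than in skeletal myonuclei, of which the class was chosen by 5 genes of the same tissue. Ttn had 349 and 453 CPM in smooth muscle nuclei, against 49152 and 50247 CPM in skeletal myonuclei (log2 fold change -7.47 ± 0.39, adjusted p = 1.1e-25 in edgeR). Myom1 differed least of those with a value in both classes, with 806 and 1145 CPM in smooth muscle nuclei, against 1190.0 and 1130 CPM in skeletal myonuclei (-0.79 ± 0.24, adjusted p = 0.012). In replicate 2 its smooth muscle sum was the higher of the pair, and the call was lost in DESeq2 and after thinning.

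The calcium and potassium genes divided between the muscle classes, with 9 of 20 higher and 5 lower in smooth muscle nuclei (median 1.26). Cacna1c had 31.3 and 30.9 CPM in skeletal myonuclei (log2 fold change 5.67 ± 0.28, adjusted p = 1.7e-26 in edgeR), and Ryr3 had 2.72 and 7.13 CPM there (6.61 ± 0.52). Atp2a2, the calcium pump of slow, cardiac and smooth muscle stores, had 602 and 405 CPM in smooth muscle nuclei, against 34.0 and 42.8 CPM in skeletal myonuclei (3.33 ± 0.34). The potassium channel genes Kcnq5 and Kcnma1 were lower: Kcnma1, the pore of the large calcium-activated channel, had 168 and 358 CPM in smooth muscle nuclei, against 1353 and 1389 CPM in skeletal myonuclei (-3.01 ± 0.31). Abcc9, Cacna2d1 and Stim1 were the other lower members.

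Cyclic nucleotide genes had 7 of 13 higher and none lower against skeletal myonuclei (median 2.51). Gucy1a1 had 7 and 11 UMIs in smooth muscle nuclei, against 0 and 0 in skeletal myonuclei, and was at least 55.4-fold higher. Pde3a, a phosphodiesterase inhibited by cGMP, had 566 and 572 CPM in smooth muscle nuclei, against 44.9 and 64.2 CPM in skeletal myonuclei (log2 fold change 2.95 ± 0.32). Of the 18 integrin and basement membrane genes 9 were higher and none lower (median 1.37), led by Itga1 with 8.17 and 4.76 CPM in skeletal myonuclei (6.02 ± 0.44). In the dystrophin complex 2 of 14 were higher and 6 lower (median -0.69, or -0.62 with its gene at 0 set at the bound): Dmd had 18315 and 19898 CPM in skeletal myonuclei (-1.12 ± 0.26, adjusted p = 0.00054), and Dtna was not called.

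Mural genes had 7 of 9 higher and 1 lower (Abcc9), with a median of 3.99. Regulators had 4 of 13 higher and 3 lower (median -0.21), with Rbpms at 47.7 and 47.6 CPM in skeletal myonuclei (5.07 ± 0.27) and Mef2c at 1786 and 1864 CPM there (-2.29 ± 0.26). The Notch list had 3 of 9 higher (Jag1, Maml2 and Maml3; median 0.38) and agonist receptors 1 of 5 higher (Ednra) and 1 lower (Chrm3; median 0.14). None of the 10 fibroblast genes was called against skeletal myonuclei in edgeR, and their median was 0.22. Macrophage genes had 1 of 8 higher (Mertk), endothelial genes 1 of 5 higher (Flt1), keratinocyte genes 1 of 8 lower (Trp63), adipocyte genes 2 of 6 lower (Ghr and Acsl1), dermal papilla genes 1 of 3 higher (Emid1), and Schwann cell genes none of 3. Without the nuclei that carried markers of another type, 19 of the 109 called named genes in that fit lost their call against skeletal myonuclei. They included Lmod1, Svil, Pgm5 and Ppp1r14a of the contractile list, Itpr1, Pde4d, Pde1a, Npnt, Itga5 and Col4a5. The regulators Meis2 and Zeb2, the mural gene Pdgfrb, and Ednra, Chrm3 and Emid1 also lost theirs. With a gate of at least 4 genes the calls of Emid1, Pde1a, Pdgfrb and Zeb2 were lost, and in DESeq2 those of Fhl1 and Mef2d.

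Among all genes, Dgkb, diacylglycerol kinase β (at least 351-fold), Trpc6 (at least 49.3-fold) and Eva1c (at least 27.7-fold) were higher in smooth muscle nuclei with no UMI in skeletal myonuclei. Cnn2, calponin 2, with a CArG box in the sequence above, had 193 and 191 CPM in smooth muscle nuclei, against 1 UMI in all in skeletal myonuclei (ratio 222, 36.1 to 9116). Genes at 0 in smooth muscle nuclei included Hs3st5, a heparan sulfate sulfotransferase (at least 52.3-fold lower), Alpk3, a kinase of striated muscle (23.9-fold), and Nos1, the neuronal nitric oxide synthase of the sarcolemma (17.6-fold).

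The members were divided by detection of the gate genes Itga8 and Notch3, which is a description and no result. Of the 57 and 42 nuclei, 31 and 28 had a UMI of Itga8 and none of Notch3, 11 and 7 had Notch3 and no Itga8, 3 and 2 had both and 12 and 5 had neither. Itga8-only nuclei held a median of 1634 and 895 UMIs, and Notch3-only nuclei 1023 and 1364. Their sums were 52802 and 27865 UMIs for Itga8-only nuclei and 13322 and 9333 UMIs for Notch3-only nuclei. With sums this small, 291 genes passed the filter on low counts, so most genes were too low to be tested here.

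Of these 291 genes 84 were called (28.9%), of which 48 were higher in Itga8-only nuclei (16.5%) and 36 lower (12.4%), with a median log2 fold change of 0.07. With RLE scaling the counts were 16 higher and 21 lower, with no named gene changing direction. Under that scaling 15 of the 38 called genes named here lost their call, and with a gate of at least 4 genes 22 of 29 did. In DESeq2 and with no filter on low counts 11 each did, and without nuclei that carried markers of another type 10 of 19 did. Genes outside the 29 and the 19 were not in those fits, so a call not named below as lost there was not always tested. Pcdh7, Sox5 and Pde3a kept theirs in DESeq2, under RLE scaling and with the stricter gate. The Itga8-only nuclei carried more nephronectin, α6 type IV collagen and protocadherin 7 RNA, and the Notch3-only nuclei more Kcnab1, Sox5 and Pde3a RNA. Detection of single UMIs sets these subsets, so a nucleus may carry the RNA that was not detected in it. The summed level of the endothelial list was 0 and 35.9 CPM in Itga8-only nuclei (0 and 1 UMIs) and 300.3 and 857 CPM in Notch3-only nuclei (4 and 8 UMIs). In Notch3-only nuclei Flt1 had 1 and 4 of these UMIs, Pecam1 1 and 1, Vwf 0 and 2, Tek 0 and 1, Kdr 1 and 0 and Eng 1 and 0, while Cdh5, Ptprb, Emcn and Tie1 were at 0 in both subsets. The fibroblast list summed to 4583 and 4271 CPM in Itga8-only nuclei and 5930.0 and 6000.2 CPM in Notch3-only nuclei. The part of either in the results was not tested.

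Npnt had 31 and 15 UMIs in Itga8-only nuclei (587 and 538 CPM), against 0 and 0 in Notch3-only nuclei, and was at least 4.31-fold higher (adjusted p = 0.0012 in edgeR). The calls of Npnt and Col4a6 were lost with RLE scaling, that of Npnt also in DESeq2 and that of Col4a6 also with a gate of at least 4 genes. Col4a6 had 44 and 19 UMIs in Itga8-only nuclei, against 0 and 0 in Notch3-only nuclei (at least 5.90-fold). With none in the Notch3-only sums, a level of up to 132 CPM over both mice is allowed there, which is the level these bounds use. Both genes were seen in several nuclei: Npnt in 11 of 31 and 6 of 28 Itga8-only nuclei, Col4a6 in 13 and 10. Lama4, a laminin of muscle and vessel basement membranes, was also higher (log2 fold change 2.01 ± 0.79), a call lost with RLE scaling, in DESeq2 and with the stricter gate. Itga1 and Lama2 were not called, which made 3 higher of 5 tested (list median 2.01). Npnt and Col4a6, with no UMI in Notch3-only nuclei, passed the filter through their Itga8-only sums alone.

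Pcdh7, a protocadherin, had 204 and 108 UMIs in Itga8-only nuclei, against 1 and 0 in Notch3-only nuclei, a ratio of 87.6 (95% counting interval 15.6 to 3472; adjusted p = 1.2e-13 in edgeR). Kctd16, a partner of GABA-B receptors, had 85 and 43 UMIs in Itga8-only nuclei, against 0 and 0 (at least 12.0-fold higher). Cpa6, a carboxypeptidase, Kcnd2, a voltage-gated potassium channel, and Tafa1 were at least 9.17-, 9.08- and 8.89-fold higher, and Prune2 and Fat3 at least 6.18- and 4.87-fold. All of these but Pcdh7 had no UMI in Notch3-only nuclei and passed the filter through their Itga8-only sums alone. Their direction in each mouse was thus fixed by that choice. The calls of Cpa6, Kcnd2 and Fat3 were lost in DESeq2, that of Fat3 also with RLE scaling, and those of Kcnd2, Tafa1 and Prune2 with a gate of at least 4 genes.

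Contractile genes had 5 of 14 tested higher and none lower in Itga8-only nuclei (median 1.17). Svil, supervillin, had 2935 and 2369 CPM in Itga8-only nuclei, against 150.1 and 107 CPM from 2 and 1 UMIs in Notch3-only nuclei (ratio 20.7, 95% counting interval 6.99 to 101). Mylk had 2595 and 2584 CPM in Itga8-only nuclei, against 375 and 1179 CPM in Notch3-only nuclei (log2 fold change 1.71 ± 0.50, adjusted p = 0.0045 in edgeR). Lpp and Pdlim3 were also called, and with RLE scaling the calls of Mylk, Lpp and Pdlim3 were lost. With a gate of at least 4 genes those of Svil, Mylk, Lpp and Pdlim3 were, and in DESeq2 that of Pdlim3 was. Cald1 had 2443 and 1974 CPM in Itga8-only nuclei and 1276 and 1607 CPM in Notch3-only nuclei and was not called (adjusted p = 0.50).

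Of the phosphodiesterases that set cAMP, different members led in each subset. Pde4d had 6269 and 5598 CPM in Itga8-only nuclei, against 225 and 536 CPM in Notch3-only nuclei (log2 fold change 3.87 ± 0.44, adjusted p = 3.4e-14 in edgeR). It had a UMI in 30 of 31 and 24 of 28 Itga8-only nuclei, against 3 of 11 and 2 of 7 Notch3-only nuclei. Pde3a ran the other way, with 170.4 and 179 CPM in Itga8-only nuclei, against 2402 and 1500.1 CPM in Notch3-only nuclei (-3.65 ± 0.66, adjusted p = 1.5e-06). Prkg1 was higher in Itga8-only nuclei (1.49 ± 0.26), which completes the 3 tested genes of that list (median 1.49). The calls of Pde4d and Prkg1 were lost with a gate of at least 4 genes, and that of Pde3a was not.

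Of 9 tested calcium and potassium genes 1 was higher and 5 lower in Itga8-only nuclei (median -1.34). The calls of Kcnq5, Cacnb2 and Ryr3 were lost with RLE scaling, those of Cacna1c, Cacnb2 and Kcnq5 with no filter on low counts, and those of Cacna1c, Cacnb2 and Ryr3 with a gate of at least 4 genes. In DESeq2 those of Kcnq5 and Ryr3 were lost. Kcnab1, a potassium channel β subunit, had 0 and 6 UMIs in Itga8-only nuclei, against 31 and 26 in Notch3-only nuclei (log2 fold change -5.16 ± 0.72, adjusted p = 4.7e-10 in edgeR). Cacna1c had 1723 and 1758 CPM in Itga8-only nuclei, against 3528 and 4393 CPM in Notch3-only nuclei (-1.34 ± 0.36). Slc8a1, Kcnq5 and Cacnb2 were lower too, by -2.91 ± 0.62, -3.27 ± 0.76 and -1.93 ± 0.61. Ryr3 was higher, with 31 and 33 UMIs in Itga8-only nuclei, against 0 and 2 in Notch3-only nuclei. Trpc6 and Ano1 were not tested there and are named after their values were seen. Trpc6 had 0 and 0 UMIs in Itga8-only nuclei and 11 and 4 in Notch3-only nuclei. Ano1 had 0 and 1 UMIs in Itga8-only nuclei and 27 and 3 in Notch3-only nuclei. In replicate 1 Dgkb, described above against skeletal myonuclei, had 0 UMIs in Itga8-only nuclei and 26 in Notch3-only nuclei.

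The dystrophin complex had 3 of 5 tested genes higher and 1 lower (median 1.65). Sgcd, δ-sarcoglycan, had 117 and 59 UMIs in Itga8-only nuclei, against 1 and 1 in Notch3-only nuclei (ratio 24.7, 95% counting interval 6.74 to 206). Dmd had 11685 and 21317 CPM in Itga8-only nuclei, against 3303 and 6107 CPM in Notch3-only nuclei (1.65 ± 0.25, adjusted p = 1.0e-08 in edgeR). Its relative Utrn had 265 and 467 CPM in Itga8-only nuclei, against 2027 and 964 CPM in Notch3-only nuclei (-2.28 ± 0.61). The calls of Dmd, Sgcd, Utrn and Dtna were lost with a gate of at least 4 genes, that of Utrn also with RLE scaling and no filter, and that of Dtna also with RLE scaling and in DESeq2.

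Among single genes of transcription factors, Sox5 had 2 and 7 UMIs in Itga8-only nuclei, against 29 and 24 in Notch3-only nuclei (log2 fold change -4.46 ± 0.70, adjusted p = 2.3e-08 in edgeR), where 9 of 11 and 7 of 7 nuclei had a UMI. Ebf1 and Ebf2, the 2 tested mural genes, were both lower in Itga8-only nuclei (-1.82 ± 0.39 and -3.81 ± 0.68; median -2.82). Both calls were lost with no filter on low counts, that of Ebf1 also with a gate of at least 4 genes. Zeb2 was lower (-1.86 ± 0.42), the only called regulator of 4 tested (median -0.22), and its call was lost with RLE scaling, with no filter and with the stricter gate. Of the 2 tested Notch genes Maml3 was lower (-1.63 ± 0.65, adjusted p = 0.047 in edgeR; median -0.41), a call lost with RLE scaling, in DESeq2, with no filter and with the stricter gate. Rcan2, a regulator of calcineurin, Kitl, the KIT ligand, Frmd4a and Dock10 were lower as well. In Notch3-only nuclei Kitl and Frmd4a each had 7 and 5 UMIs, and Dock10 had 8 and 6. The calls of Kitl, Frmd4a and Dock10 were lost with no filter on low counts, that of Frmd4a also in DESeq2.

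Csmd1 had the largest difference downward, with 1 and 0 UMIs in Itga8-only nuclei, against 45 and 9 in Notch3-only nuclei, but 44 of the 45 and all 9 came from 1 nucleus each. The fibroblast genes Col1a1, Col1a2, Col3a1 and Col5a2 were tested and not called between the subsets (median -0.70), and neither were Myom1 (0.65) and Ghr (0.37). No gene of the agonist receptor, dermal papilla, keratinocyte, endothelial, macrophage or Schwann cell lists passed the filter there.

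Nuclei in which neither gene was detected can be set beside the subsets as a description. In replicate 1 these 12 nuclei had 3811 CPM of Pcdh7 and 2461 CPM of Cpa6 and no UMI of Kcnab1. In replicate 2 the 5 nuclei had 1138 CPM of each of Pcdh7 and Cpa6 and again no Kcnab1. The 2 nuclei with both genes in replicate 2 held 24 UMIs of Kcnab1 and 13 of Sox5 and none of Pcdh7, whereas the 3 in replicate 1 held 2, 7 and 8.

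In wounded skin the gate found 27 and 12 barcodes, 1.13% (95% Wilson interval 0.779 to 1.64%) and 0.277% (0.159 to 0.484%) of the nuclei in wounded replicates 1 and 2. Gate genes chose these barcodes, so their number is a description and no result: none had more than 4, and 24 and 10 had the minimum of 3. The contractile list summed to 2013 and 2783 CPM in these wounded barcodes, from 79 and 22 UMIs, against 23380 and 23558 CPM in the smooth muscle nuclei of unwounded skin. In the wounded libraries' other nuclei the same list summed to 1926 and 1962 CPM.

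The wounded libraries also stood apart as a whole. Malat1, a nuclear RNA found in nearly all nuclei, took 0.0153% and 0.0886% of UMIs in the wounded barcodes that passed the gate, against 7.15% and 6.68% in unwounded smooth muscle nuclei. Olfactory and vomeronasal receptor genes, which skin nuclei are not known to use, summed to 8562 and 8224 CPM there, against 84.2 and 167 CPM in unwounded smooth muscle nuclei. Among other nuclei Malat1 took 0.125% and 0.291% of UMIs in the wounded libraries, against 9.27% and 8.28% in the unwounded. The receptor genes summed to 6938 and 6515 CPM in wounded other nuclei, against 96.7 and 134 CPM in unwounded other nuclei. No test was made between the wounded and unwounded groups, and the wounded barcodes enter no other value given here.

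**Figure D4:**
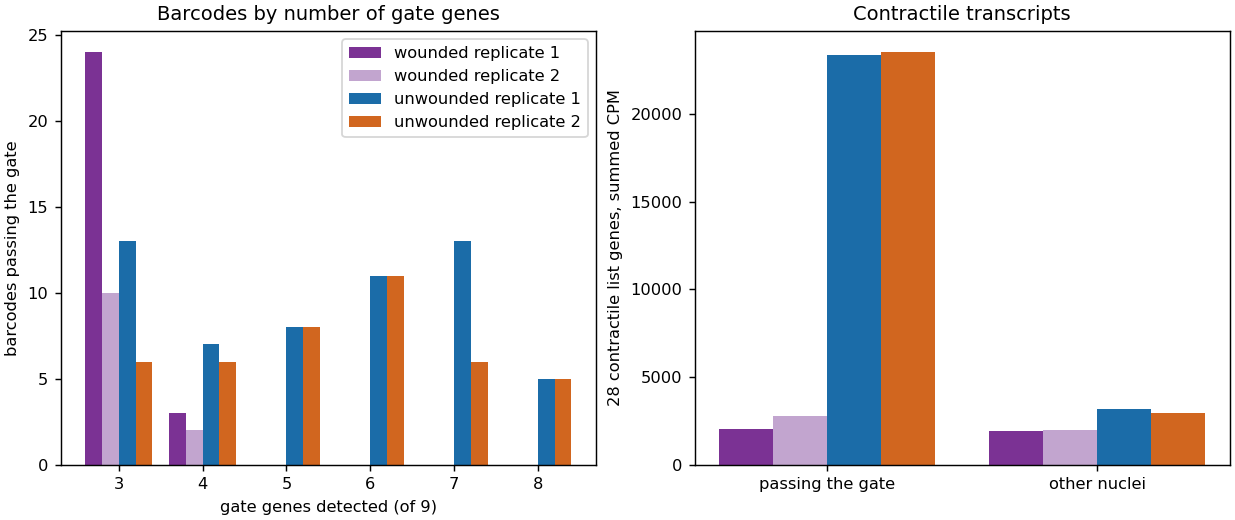
Left: barcodes that passed the gate (y axis) by the number of gate genes detected (x axis, of 9) in the wounded and unwounded libraries. Right: summed CPM of the 28 contractile list genes in the barcodes that passed the gate and in other nuclei; the bars of the wounded libraries are at 2013 and 2783 CPM in the barcodes that passed, and those of the unwounded libraries at 23380 and 23558 CPM.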

How the data were processed

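Nuclear RNA of 4 back skin libraries had been read with a droplet 3′ kit, per the labels' protocols, and counted with Cell Ranger 5.0.1 on GRCm38, per the submitters' processing notes. The deposited values are UMI counts per gene and barcode, made by the authors; whether intronic reads were counted, and how reads matching several genes were treated, is not given in the sources used here. Of 32285 gene IDs, 32158 matched GENCODE vM21, which gave positions.

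Barcodes were kept, classed and summed as described above. Sums per mouse and class were tested with edgeR 4.0.16 in R 4.3.3 (filterByExpr, TMM, glmQLFit, glmQLFTest, adjusted p under 0.05), with 1 fit over 3 classes and 1 over the Itga8-only and Notch3-only sums. The mouse was a block, since the sums compared come from the same animals: correlations of same-mouse deviations were 0.0325 (smooth muscle and skeletal), 0.108 (smooth muscle and other), 0.209 (skeletal and other) and 0.0560 (Itga8-only and Notch3-only). With 2 mice, p-values rest on the spread shared across genes. The gate genes stayed in library sizes and out of the tests. The fits were tested on simulated data with known changes, given to genes of at least 100 CPM over the pooled sums. Recovery of genes below that level, such as Lmod1 and Ryr3 in the class fit, was not tested. In the 2 class comparisons, 80% to 100% of simulated log2 fold changes of 2, -2, 3 and -3 were recovered. In the subset comparison 71.4% and 100% of changes of 2 and 3 were recovered, but 35.7% and 28.6% of those of -2 and -3. Of the 14 genes given each of these downward changes, 7 and 6 passed the filter. Recovery there thus differed by direction.

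Genes named are those past the threshold with the largest differences (15 or 10 higher, 8 lower, at least 50 CPM in both sums of the class where they are higher) and members of the 17 lists, led by the smallest p; a few genes that met the rule are not reported here. The members and lists were chosen with earlier results of these data known. Alternatives were DESeq2 1.42.0, RLE scaling, no filter, no block, a gate of 4 genes, 400 genes per nucleus, thinning to 500 UMIs, removal of doublets and of nuclei with markers of other types, and each mouse alone. Doublets were scored with Scrublet (scanpy 1.11.5), whose own threshold called none; the alternative removed the highest scores at 0.8% per 1000 barcodes, which took 4 and 0 smooth muscle nuclei.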

Additional observations from a re-analysis of the deposited data

How the results depend on the processing

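Against other nuclei, the 487 higher and 350 lower genes became 445 and 111 in DESeq2, 253 and 163 after thinning to 500 UMIs, and 208 and 283 without nuclei that carried markers of another type. Against skeletal myonuclei, the 674 higher and 967 lower genes became 599 and 604 in DESeq2, 308 and 409 after thinning, and 267 and 740 without nuclei carrying other markers. Thinning and leaving out nuclei reduce the UMIs and genes tested; for DESeq2 the cause was not tested. The subset comparison moved most: its 48 higher and 36 lower genes of 291 tested became 16 and 21 with RLE scaling and 23 and 21 in DESeq2. They became 65 and 10 of 10157 tested with no filter on low counts and 3 and 5 of 217 with a gate of at least 4 genes. After thinning they were 11 and 14 of 64 tested, and without nuclei carrying other markers 7 and 6 of 62. With no replicate block the counts were 438 and 262, 610 and 870, and 51 and 40 in the 3 comparisons; the block thus moved no count by over 1.5 times. Among called named genes, the block decided the calls of Adgre1, Agtr1a, Dsp, Maml2, Maml3, Mbp and Trp63 against other nuclei and Chrm3 against skeletal myonuclei, and no other.

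Among called named genes, the direction reversed for Ednra against skeletal myonuclei, at -0.37 with a gate of at least 4 genes, and Myom1, at 0.032 without replicate 1 and -0.552 without replicate 2. Each mouse alone leaves no residual degrees of freedom, so those are values with no test. The share of smooth muscle nuclei became 0.632% in replicate 1 with a gate of at least 4 genes, and 0.861% in replicate 2 with at least 400 genes per nucleus, where replicate 1 had 0.885%. Depth limits what the Notch3-only sums can show: 3 UMIs over both mice stand for 132 CPM there.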
